A study of Mus musculus with 59 samples.

Results

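Melan-a cells that had been exposed to alpha-melanocyte stimulating hormone (α-MSH) for 3 days were compared with untreated melan-a cells on 6 of the 59 2-colour arrays of the series. The 6 arrays are those whose treated channel is labelled α-MSH at 3 days. Melan-a is an immortal line of pigmented mouse melanocytes, here of C57BL6 origin, and all groups are this 1 line. Treated cells received 100 nM α-MSH at 37 °C. Each array held treated RNA in one channel and RNA of untreated cells in the other, so every value is a ratio of the 2 and no group was hybridised on its own. Treated RNA was in Cy5 on 3 arrays (the direct orientation) and in Cy3 on the other 3 (the reverse orientation). A direct and a reverse array form a biological replicate, which gives n = 3. The other groups used for comparison are α-MSH at 100 nM for 4 days, and recombinant agouti signaling protein (ASP) at 10 nM for 3 days, each with 6 arrays in 3 replicates. The same doses for 3 h, 1 day and 2 days, and ASP for 4 days, are shown beside them. These too have 3 replicates each, 1 of them a lone reverse array for ASP at 2 days. Whether these groups used the same untreated RNA is not given in the sources used here.

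α-MSH is a peptide cut from pro-opiomelanocortin. It binds the melanocortin 1 receptor on melanocytes, which couples to adenylyl cyclase and raises cyclic AMP. In this cell type the pathway is known for raising the transcription factor MITF and the enzymes that make brown-black eumelanin. ASP binds the same receptor as an antagonist and inverse agonist and is known for shifting synthesis to yellow pheomelanin.

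Probes are given by number, because no table used here pairs the array's probes with genes. Pigment genes, cell type markers and probe sequences could therefore not be read, and a ratio gives no level in any case. The direction is taken as treated over untreated. The design text writes the ratio in that order, but the values do not settle the numerator, so "higher" and "lower" below are the likely directions.

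The deposited ratios were of uneven resolution. On the direct array of replicate 2, the value -1.192 occurred at 2553 probes, -1.777 at 2182, -2.192 at 1430 and -0.192 at 1380. On each of the 6 arrays the most frequent values differed by the base 2 logarithm of ratios such as 2, 3/2, 4/3 and 5/4. The second most frequent value lay 0.585 or 1 log2 unit from the most frequent on 4 arrays and 0.322 or 0.321 from it on the remaining arrays. The values are therefore log2 ratios to which 1 constant per array was added, and many are ratios of small whole numbers.

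**Figure D1:**
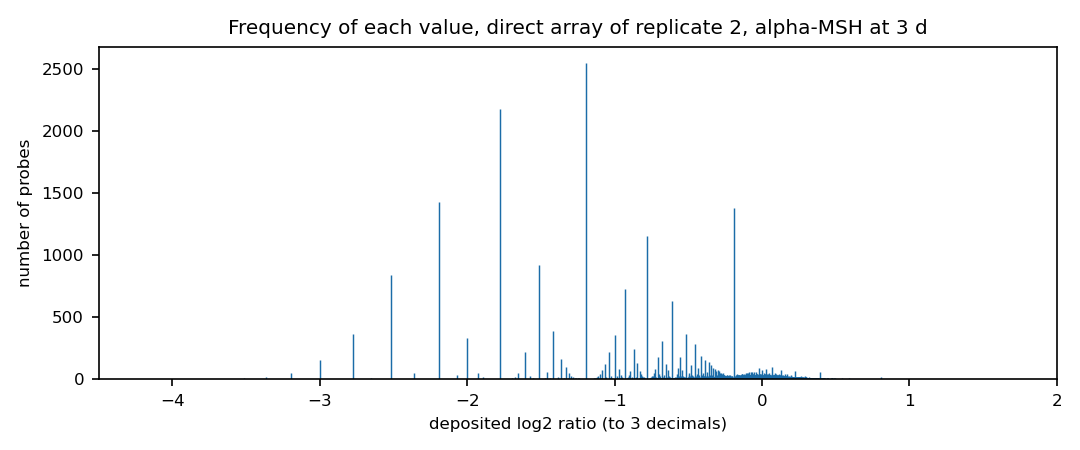
Number of probes (vertical axis) that hold each deposited log2 ratio (horizontal axis, to 3 decimals) on the direct array of replicate 2 of α-MSH at 3 d. The highest line, at -1.192, stands for 2553 probes, and the spacing of the lines is that of ratios of small whole numbers.

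A value that equals the array's constant plus the log2 of a ratio of whole numbers of at most 8 (within 0.0011) is called a small-number ratio here. Small-number ratios made up 37.5%, 41.4% and 26.2% of the values on the direct arrays of replicates 1, 2 and 3, and 31.2%, 38.6% and 43.7% on the reverse arrays. With the constant moved off its place, 1.46% to 1.95% of values met the same condition. Of the 38430 probes tested, 51.6% had at most 1 small-number ratio among their values and 40.1% had 3 or more.

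Probes with 3 or more small-number ratios varied more between replicates than those with fewer. The median SD over the 3 replicates was 0.264 log2 units over the 14042 probes with none, and 0.259, 0.279, 0.336, 0.405 and 0.453 over those with 1 to 5. It was 0.446 over the 3540 probes whose 6 values all were small-number ratios. The share of probes at an unadjusted p under 0.05 was 8.62% in the former and 1.05% in the latter. In between, the share fell with each step: 7.23%, 4.62%, 2.88%, 1.88% and 1.55% of the probes with 1, 2, 3, 4 and 5 such values.

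**Figure D2:**
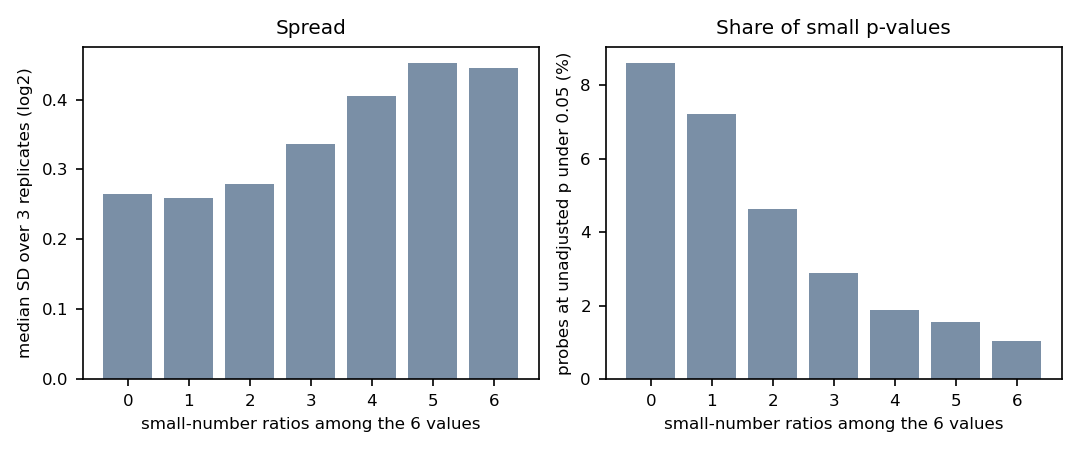
Probes with a value on all 6 arrays, grouped by how many of the 6 are small-number ratios (horizontal axes). Left, the median SD over 3 replicates in log2 units, lowest at 1 (0.259) and highest at 5 (0.453); right, the percentage of probes at an unadjusted limma p under 0.05, from 8.62% at 0 to 1.05% at 6.

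The arrays also differed in their centre. The medians were -0.22, -0.41 and -0.92 on the direct arrays of replicates 1, 2 and 3 and 0.38, 0.45 and 0.36 on the reverse arrays, a turn of sign with the dye. Small-number ratios took part in it: the values other than these had medians of -0.09, -0.13, -0.54, 0.21, 0.13 and 0.09 in the same order, closer to 0 on every array. Those other values spread over an SD of 1.29 on the direct array of replicate 3 and 0.46 to 0.63 on the remaining 5 arrays, so this array stands apart in both its centre and its spread. All ratios below are log2 values after the median of their array was subtracted, and the 2 arrays of a replicate were averaged so that opposite dye effects cancel.

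After 3 days of α-MSH, 22 of the 38430 probes tested differed from 0 at an adjusted p under 0.05, which is 0.0572% (limma, Benjamini-Hochberg). Of these, 13 were lower in treated cells (0.0338% of the probes tested), by a median of 2.43-fold, and 9 were higher (0.0234%), by a median of 2.20-fold. All 22 had one sign in the 3 replicates, against 23.2% over all probes, and 17 had it on all 6 arrays. The 22 were chosen for their distance from 0, which favours one sign, so nothing is read from this agreement. Without adjustment, 2069 probes, or 5.38%, had p under 0.05. The calls were few and rested on particular choices: none remained in a fit of the α-MSH replicates alone (lowest adjusted p 0.052), none without replicate 3 and 3 without replicate 2, by the same limma test. The spread that made the calls was estimated over all 30 replicates of the 10 groups. Replicate 1 belongs to another run of database numbers than replicates 2 and 3, and with that run as a block no probe was called (lowest adjusted p 0.068), while 1399 had an unadjusted p under 0.05.

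**Figure D3:**
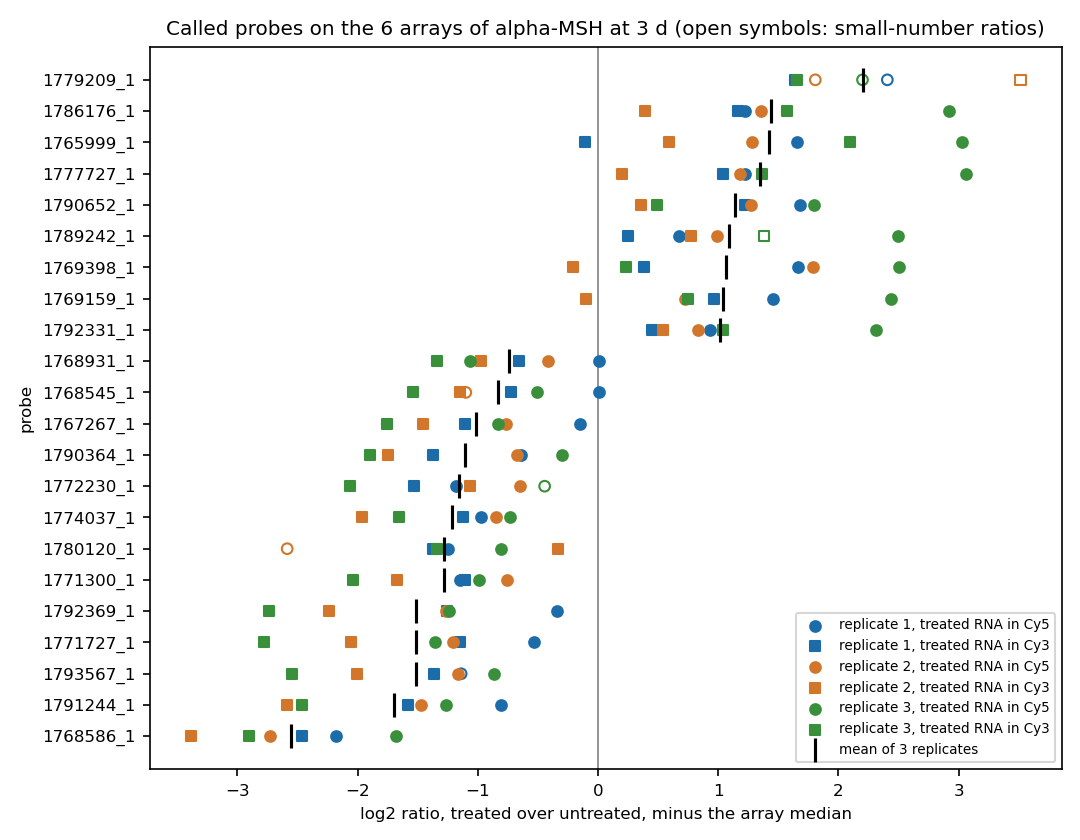
The 22 probes that passed the test after 3 d of α-MSH (vertical axis) with their centred log2 ratio of treated over untreated on each of the 6 arrays (horizontal axis). Colours mark the replicate, circles treated RNA in Cy5, squares treated RNA in Cy3, open symbols small-number ratios, and black bars the mean of 3 replicates. In 20 of the 22 probes the mean of the Cy5 arrays lies to the right of that of the Cy3 arrays. The share over all probes was not counted.

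Probe 1768586_1 had the lowest mean of all probes with a value on all 6 arrays. Its ratios were -2.32, -3.06 and -2.29 in replicates 1, 2 and 3, and between -3.38 and -1.68 on the single arrays. All 6 arrays were thus far below 0, and none of the 6 values was a small-number ratio. The mean was -2.56 ± 0.43 (SD, n = 3; 95% interval -3.27 to -1.84), or 5.89-fold lower, with an adjusted p of 0.0027 in limma.

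Probe 1771300_1 had the smallest adjusted p, 0.0021 in limma. It stood at -1.12, -1.21 and -1.51 in the 3 replicates, a mean of -1.28 ± 0.20 (SD, n = 3). Its 6 arrays lay between -2.04 and -0.75. Across the 53 arrays of the other groups, the ratios of 1771300_1 and 1768586_1 had a Pearson correlation of 0.927 after centring and removal of the dye effect. It is given as a description of probes chosen after their values were seen. These arrays share dyes, and they may share untreated RNA. They also pool α-MSH and ASP, so differences between groups enter the correlation, and arrays of one group are not independent points.

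Probes 1771727_1 and 1792369_1 had nearly the same values. Probe 1771727_1 was at -0.84, -1.63 and -2.07 in the 3 replicates (mean -1.51 ± 0.62, SD, n = 3). Probe 1792369_1 was at -0.80, -1.75 and -1.99 (mean -1.51 ± 0.63, SD, n = 3). Both had an adjusted p of 0.0094 in limma, and replicate 1 was the nearest to 0 in both. Over the 53 arrays of other groups they correlated at 0.953, computed in the same way and with the same limits. Whether the pair reads one transcript is not known here.

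Probe 1791244_1 was lower by 3.24-fold, with -1.19, -2.03 and -1.86 in the replicates (mean -1.69 ± 0.44, SD, n = 3). Its adjusted p was 0.0043 in limma, and its 6 arrays ranged from -2.58 to -0.80. Probe 1793567_1 had the same adjusted p and replicates at -1.25, -1.59 and -1.71 (mean -1.51 ± 0.24, SD, n = 3). None of the arrays of either probe reached 0.

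The dyes disagreed in 1 replicate of probe 1780120_1. Its replicate means of -1.31, -1.46 and -1.07 lay close together (mean -1.28 ± 0.19, SD, n = 3; adjusted p 0.0033 in limma). The 2 arrays of replicate 2 were at -2.58 and -0.33, and the lower of them was a small-number ratio. With such values left out the mean was -0.93 and the call was lost (adjusted p 0.12 in limma). Replicates 1 and 3 had no such gap, at -1.25 and -1.37 in the former and -0.81 and -1.34 in the latter.

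The remaining lower probes fell by less. Probe 1774037_1 was at -1.21 ± 0.18, 1772230_1 at -1.15 ± 0.26, 1790364_1 at -1.10 ± 0.10 and 1767267_1 at -1.01 ± 0.34 (means ± SD, n = 3). Probes 1768545_1, at -0.83 ± 0.42, and 1768931_1, at -0.74 ± 0.44, were the closest to 0 among the calls. In both, the direct array of replicate 1 was at about 0 (0.01), while the other 5 arrays were below it. Adjusted p-values of these 6 probes ran from 0.0094 to 0.036 in limma. In 10 of the 13 lower probes, replicate 1 showed the smallest fall.

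Among the higher probes, 1779209_1 had the largest mean and the coarsest values. Its replicates were at 2.02, 2.66 and 1.93, a mean of 2.20 ± 0.40 (SD, n = 3) or 4.61-fold, with an adjusted p of 0.021 in limma. All 6 arrays were between 1.64 and 3.52, but 5 of the 6 values were small-number ratios. With small-number ratios left out, a choice made after the data were seen, the probe could not be tested.

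Probes 1786176_1, 1765999_1 and 1777727_1 were highest in replicate 3, and above 0 in the other replicates too. Probe 1786176_1 was at 1.19, 0.87 and 2.25 in the replicates (mean 1.44 ± 0.72, SD, n = 3; adjusted p 0.0094 in limma). Probe 1765999_1 was at 0.77, 0.94 and 2.56 (mean 1.42 ± 0.99, SD, n = 3). Probe 1777727_1 was at 1.13, 0.69 and 2.21 (mean 1.34 ± 0.78, SD, n = 3).

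Replicate 3 was the highest in 7 of the 9 higher probes, and its direct array was the highest of the 6 arrays in 8 of them. The 2 probes with another highest replicate were 1779209_1 and 1790652_1. Probe 1790652_1 was at 1.45, 0.82 and 1.14 (mean 1.14 ± 0.32, SD, n = 3), with its arrays between 0.36 and 1.79. It kept its call in 8 of 18 alternatives and lost it, among others, when any 1 replicate was left out. Probe 1789242_1 was at 1.09 ± 0.76, 1769398_1 at 1.06 ± 0.29, 1769159_1 at 1.04 ± 0.66 and 1792331_1 at 1.02 ± 0.57 (means ± SD, n = 3). With small-number ratios left out, 1789242_1 was at 1.13 and no longer passed (adjusted p 0.082 in limma). In 1769398_1 the dyes disagreed: the 3 direct arrays were at 1.66, 1.79 and 2.50 and the 3 reverse arrays at 0.38, -0.21 and 0.23. Probe 1769398_1 too lost its call when any 1 replicate was left out, as did 1774037_1, 1772230_1, 1777727_1 and 1779209_1. Without the direct array of replicate 3, the calls of 1769398_1, 1790652_1 and 1779209_1 were lost (adjusted p 0.054, 0.095 and 0.095 in limma).

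A gap between dyes was general among the 22 probes. The mean of the direct arrays exceeded that of the reverse arrays in 20 of them, by a median of 0.82 log2 units over the 22. The share over all probes was not counted, but a gap was not particular to the 22. After centring, all values that are not small-number ratios had medians of 0.13, 0.29 and 0.38 on the direct arrays of replicates 1, 2 and 3. On the reverse arrays their medians were -0.17, -0.31 and -0.27. All but 1 of the 22 probes had at most 1 small-number ratio. In the deposited values, before any array was centred, the median gap of the 22 was -0.09, and 21 of them had one sign on all 6 arrays. How many of all probes had one sign in the deposited values was not counted, so nothing is read from the 21. Subtracting the array median thus brought in most of the gap for these probes. Averaging the dyes cancels what was subtracted only where the medians of a pair are equal and opposite. In replicate 3 they were -0.92 on the direct and 0.36 on the reverse array, so centring raised the means of that replicate. It lowered those of replicates 1 and 2 by less (medians -0.22 and 0.38, and -0.41 and 0.45). The rankings of replicate 3 above were made on centred values. Without centring, 27 probes were called, among them 20 of the 22.

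Size alone did not decide a call. A mean change of at least 2-fold was reached by 143 probes, 94 higher and 49 lower, and 34 of the 143 had 3 or more small-number ratios. Of the 5 highest probes with a value on all arrays, 4 did not pass the test. Probe 1788237_1 was at 2.48, 1.85 and 2.10 (mean 2.14 ± 0.32, SD, n = 3; adjusted p 0.091 in limma). Probe 1768189_1 was at 1.67, 2.01 and 1.82 (mean 1.83 ± 0.17, SD, n = 3; adjusted p 0.23 in limma).

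Both probes varied more at an earlier time. In α-MSH at 3 h, probe 1788237_1 had replicates at -1.63, 2.33 and 0.21, and 1768189_1 at -1.91, 2.13 and 0.11. The shared estimate of the spread takes in those values. Probe 1777812_1 was at 1.36, 2.39 and 2.03 at 3 d (mean 1.93 ± 0.53, SD, n = 3; adjusted p 0.55 in limma) and at -2.91, 3.61 and 0.16 at 3 h.

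The last of the 4, 1768721_1, was carried by 1 replicate. It stood at -0.00 and 0.78 in replicates 1 and 2 and at 4.21 in replicate 3 (mean 1.66 ± 2.24, SD, n = 3; adjusted p 0.26 in limma). Both arrays of replicate 3 were high, at 5.18 on the direct and 3.23 on the reverse array.

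Replicate 3 held many such probes. Among the 19755 probes with at most 1 small-number ratio and a value on all 6 arrays, 384 were at least 2-fold higher on both arrays of replicate 3 and 30 at least 2-fold lower. The same count was 16 higher and 10 lower in replicate 1, and 6 higher and 15 lower in replicate 2. The 384 probes had a median of 1.80 in replicate 3, by which they were chosen, and of -0.04 and 0.06 in replicates 1 and 2, where 5 of them in each reached a mean of 2-fold. In the 3 replicates of α-MSH at 4 d their medians were 0.17, 0.36 and -0.01, and 4, 39 and 9 of the 384 reached 2-fold. Over all probes the medians of these 3 replicates were -0.0015, 0.067 and 0.0075. How many of the 19755 probes reached a mean of 2-fold in each replicate was not counted. Nothing is therefore read from the numbers of the 384 that did. The counts depended on the centring: 384 higher and 30 lower became 399 and 155 in the deposited values, and 561 and 65 with arrays centred on the values that are not small-number ratios.

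**Figure D4:**
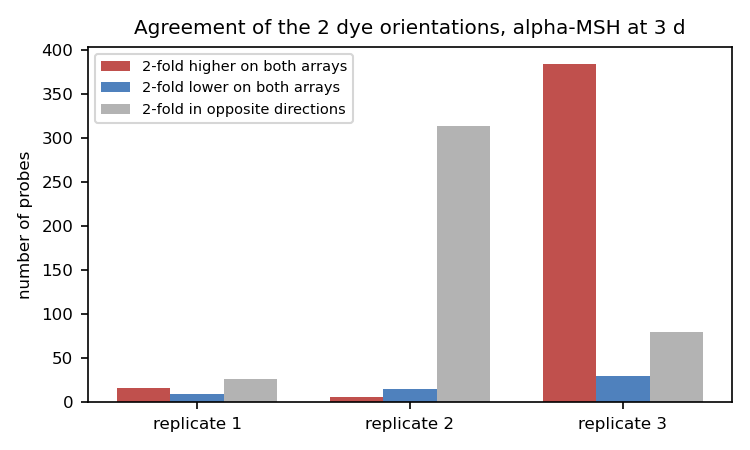
Probes with at most 1 small-number ratio that were at least 2-fold higher (red), 2-fold lower (blue) or 2-fold in opposite directions (grey) on the 2 arrays of a replicate of α-MSH at 3 d; the vertical axis is the number of probes out of 19755. Replicate 3 has 384 probes higher on both arrays, against 16 in replicate 1 and 6 in replicate 2, and replicate 2 has 314 probes in opposite directions.

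Among probes with no small-number ratio, the 2 arrays of replicate 3 also had more similar profiles than the arrays of the other pairs. Over the 14042 probes with no small-number ratio, the direct and reverse arrays of replicate 3 had a Pearson correlation of 0.554 across probes. In replicates 1 and 2 the same correlation was -0.02 and -0.43. Over the 14042 probes, arrays of different replicates but one dye orientation reached 0.560 at most, between the direct arrays of replicates 2 and 3. Between replicate means over these probes, replicates 1 and 2 correlated at 0.228, 2 and 3 at 0.277 and 1 and 3 at -0.10. Probes are not independent replicates, and the arrays of one orientation share their dyes.

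The 22 probes were followed over the other times of α-MSH exposure. At 3 h the 13 lower probes had means between -0.10 and 0.19 and the 9 higher probes between -0.15 and 0.12. The ranges after 1 day were -0.56 to 0.28 and -0.14 to 0.36, and those after 2 days -1.29 to -0.00 and -0.28 to 0.76. After 4 days they were -1.63 to -0.10, with a median of -0.64, and 0.14 to 2.09, with a median of 1.00. At 3 d, where the probes were chosen, the medians were -1.28 and 1.14.

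None of the 22 was called at another time of α-MSH, nor was any other probe by limma. Probes with an unadjusted p under 0.05 numbered 541 (1.41%) after 3 h, 856 (2.23%) and 894 (2.33%) after 1 and 2 days and 1997 (5.2%) after 4 days. The lowest adjusted p among the 22 at 4 d was 0.054, for 1771300_1, whose replicates were at -0.94, -0.96 and -0.97. Probe 1768586_1 was at -1.63 ± 0.42 and 1779209_1 at 2.09 ± 0.82 at 4 d (means ± SD, n = 3).

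**Figure D5:**
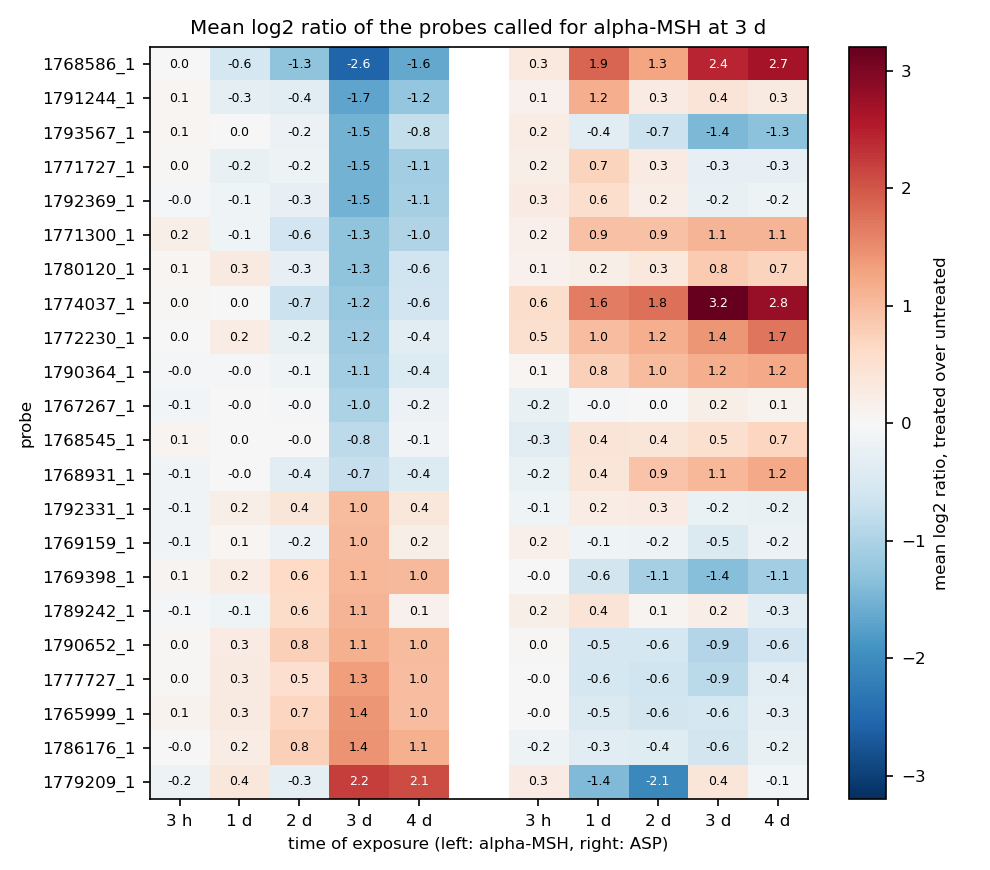
Mean log2 ratio of treated over untreated (colour and printed value) of the 22 probes that passed the test after 3 d of α-MSH, in rows, at the 5 times of α-MSH (left) and ASP (right). Each cell is the mean of the replicates with a value, usually 3. Probe 1768586_1 reads -2.6 with α-MSH and 2.4 with ASP at 3 d, and 1793567_1 reads -1.5 and -1.4.

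Tested directly, the difference between 3 d and 4 d of α-MSH passed for 0 of 38422 probes (0% called by limma), with 739 (1.92%) at an unadjusted p under 0.05. Among the 22 probes, 9 had an unadjusted p under 0.05. They were chosen for their distance from 0 on the earlier day, which favours a difference, so nothing is read from that share or from the values that follow. Probe 1767267_1 had the lowest, 0.0012, with a difference of -0.83 (95% interval -1.30 to -0.37) and an adjusted p of 1.0 in limma. The largest difference, 0.95 (0.41 to 1.50), was that of 1789242_1, at 1.09 ± 0.76 on the earlier and 0.14 ± 0.13 on the later day (SD, n = 3). For 1768586_1 the interval of the difference ran from -1.94 to 0.08, so a change of either several fold or none between the days is within the error. Nothing can be called particular to 3 d from these arrays.

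Between α-MSH and ASP at 3 d, 1934 of 27898 probes differed, or 6.93% (limma, adjusted p under 0.05), 791 of them higher (2.84%) and 1143 lower (4.1%) with α-MSH. Among the 22 probes, 21 could be tested and 20 differed; since they were chosen for their distance from 0 with α-MSH, nothing is read from that share. All ASP arrays belong to a run of database numbers of their own, so drug and run cannot be told apart. In a fit of these 2 groups alone, 465 probes passed. Without replicate 3 of α-MSH 1027 passed, and without replicate 1, 2 or 3 of ASP 1263, 1242 or 1219.

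Probe 1774037_1 had the smallest p of the 22 in this comparison. It was at -1.05, -1.41 and -1.19 with α-MSH and at 3.04, 3.27 and 3.24 with ASP. The replicates of the 2 groups were thus far apart on either side of 0, and the difference was -4.40 (95% interval -5.04 to -3.76; adjusted p 1.5e-08 in limma). Probe 1768586_1 had the largest difference, -5.00 (-6.01 to -3.99; adjusted p 1.3e-06 in limma), with ASP replicates at 2.21, 2.50 and 2.63. Probe 1771300_1 was at 1.08 ± 0.08 with ASP (SD, n = 3), a difference of -2.36 (-2.84 to -1.88).

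Among the higher probes, 1769398_1 was at 1.02, 0.79 and 1.37 with α-MSH and at -1.41, -1.28 and -1.42 with ASP, a difference of 2.43 (1.88 to 2.98; adjusted p 3.9e-06 in limma). Probes 1777727_1 and 1790652_1 differed by 2.20 (1.48 to 2.91) and 2.08 (1.45 to 2.71). Probe 1789242_1 had the smallest difference that passed, 0.88 (0.34 to 1.43; adjusted p 0.044 in limma), with ASP at 0.21 ± 0.33 (SD, n = 3).

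Probe 1793567_1 was the one tested probe that did not differ between the drugs by the test. It was at -1.51 ± 0.24 with α-MSH and -1.44 ± 0.09 with ASP (SD, n = 3), and was called lower than untreated in both (adjusted p 0.0043 and 1.2e-04 in limma; 4.46% of the probes tested with ASP at 3 d were called lower). The difference was -0.07, and its 95% interval of -0.72 to 0.58 leaves room for a difference of up to that size.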

How the data were processed

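Total RNA from an RNeasy kit was labelled by an indirect method with Cy3 or Cy5, per the labels' protocols. The authors deposited 1 log ratio per probe and array, for 38591 probes, and no scanner intensities were used. The deposited values were taken as log2 because the spacing of their most frequent values fixes the base, and the same spacing shows that 1 constant per array was added. How the authors chose that constant, their spot filter, scanner and software, and which channel is the numerator were not given in the sources used. Every array title carries the words "low pmt". All 59 sample columns were used, and 0 columns were left over.

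The median of each array was subtracted. A dye effect per probe was then estimated within each drug and removed, and the 2 arrays of a dye-swap pair were averaged. The labels do not name the pairs; α-MSH arrays were paired by neighbouring database numbers and ASP arrays by repeat numbers, and both ways give the same pairs for α-MSH at 3 d. ASP at 2 d had 1 array with no partner, kept as a replicate. The 30 replicates of 10 groups were fitted in 1 model with limma 3.58.1 (lmFit and eBayes) in R 4.3.3. Probes with a value in at least 2 replicates were tested, with Benjamini-Hochberg adjustment over all of them. With 3 replicates a group, their number limits the precision. The p-values cover only the spread between replicates, shared over the 10 groups rather than taken from α-MSH at 3 d alone. The median SD over replicates was 0.325 log2 units in α-MSH at 3 d, 0.257 in α-MSH at 4 d and 0.193 in ASP at 3 d. For a group that varied more than the others, a shared spread can make p-values too small. The scripts were tested on simulated data.

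The probes named are all those with an adjusted p under 0.05 and the 5 highest and 5 lowest means with a value on all 6 arrays. The arrays compared, the rule and the gene lists were chosen with earlier results of these data known. The gene lists were not used, since no probe could be named. Alternatives changed centring, scaling, dye correction, the unit of the fit, the samples in it, filters and blocks. Those on small-number ratios, the run as a block and the direct array of replicate 3 were chosen after seeing the data.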

Additional observations from a re-analysis of the deposited data

Results flagged for a closer look

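Of 31 measures checked for a value far from the others among the 6 arrays of α-MSH at 3 d, 4 had one. Chance alone gives about 1 in 20 for independent measures, but these are not independent. Most are probes named by their values on the same arrays, and all 4 values lie on the direct array of replicate 3. The count is therefore not set against that rate. Oriented as Cy5 over Cy3, the array median of the direct array of replicate 3 was -0.9215, and the median of its values that are not small-number ratios was -0.538. The SD of those values on the same array was 1.2866. Probe 1792331_1 stood at 2.3155 on that array, against at most 1.04 on the others.

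The difference between α-MSH and ASP at 3 d was tested directly, and 1934 probes passed (limma, adjusted p under 0.05). Among the named probes, the differences that passed were negative for 1768586_1 (-5.00), 1774037_1 (-4.40), 1772230_1 (-2.56), 1771300_1 (-2.36), 1790364_1 (-2.26), 1780120_1 (-2.13), 1791244_1 (-2.10), 1768931_1 (-1.81), 1768545_1 (-1.34), 1792369_1 (-1.28), 1771727_1 (-1.24) and 1767267_1 (-1.20). They were positive for 1777812_1 (4.42), 1768721_1 (3.30), 1788237_1 (2.95), 1769398_1 (2.43), 1768189_1 (2.37), 1777727_1 (2.20), 1790652_1 (2.08), 1786176_1 (2.02), 1765999_1 (1.99), 1769159_1 (1.50), 1792331_1 (1.23) and 1789242_1 (0.88). Probes 1777812_1, 1768721_1, 1788237_1 and 1768189_1 had not passed against untreated cells with α-MSH. They were named for their high means with α-MSH at 3 d, and the others for their distance from 0. Both favour a difference, so nothing is read from how many passed. With ASP at 3 d they were at -2.50, -1.64, -0.81 and -0.54 in this order. Of these, 1777812_1 and 1768721_1 were called lower than untreated (adjusted p 0.0085 and 0.013 in limma), as were 4.46% of the probes tested. Drug and run of database numbers cannot be told apart here.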

How the results depend on the processing

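The 22 calls at 3 d came to 169 (107 higher, 62 lower) in a fit of arrays with a random effect for the pair, 124 (74 higher, 50 lower) with arrays taken as independent and 41 with small-number ratios left out, 19 of them shared. They came to 0 in fits of the α-MSH replicates or the 3 d replicates alone (2426 and 1218 at an unadjusted p under 0.05) and 0 with the run as a fixed block. With the replicate number as a block 14 were called, all among the 22. Whether replicates of one number in different groups belong together is not known here. Same-numbered deviations at 3 d and 4 d correlated at 0.105, -0.04 and -0.29, and those of α-MSH and ASP at 3 d at 0.05, 0.06 and 0.16. Leaving out 1 replicate gave 0 to 32 calls, with 768 unadjusted without replicate 3. Without its direct array there were 23, 6 of them higher. The other settings gave 15 to 30 calls. For 3 d against 4 d every setting gave 0 (436 to 1311 unadjusted). For α-MSH against ASP at 3 d, fitting only these groups gave 465, leaving out 1 replicate 1027 to 1793, and the other settings 1696 to 2739; the count was 2004 (654 higher, 1350 lower) without the direct array of replicate 3. Probe 1768721_1 turned to -0.004 in the run of replicate 1 alone. Weighting arrays by run was not run to a result, because the estimate did not converge. Causes of these changes were not tested.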

Other observations

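Leaving out small-number ratios called 22 probes that had not passed with all values (limma, adjusted p under 0.05), 12 higher and 10 lower with α-MSH at 3 d. Of these, 15 kept all 6 values and the others as few as 2. Probe 1766590_1 was at -0.95 with an adjusted p of 0.022, against 0.054 with all values. Probe 1764816_1 was at 1.40 with an adjusted p of 0.032, against 0.054. Both kept all 6 values. They were chosen after their values were seen, as the lowest adjusted p with all values among the 22.

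Both arrays of at least 2 replicates were changed 2-fold or more in one direction for 18 probes, 10 lower and 8 higher, and 8 of these were among the calls. In 5 probes this held for all 3 replicates. Of the 5, 1768586_1 and 1779209_1 were called, while 1767340_1, 1768189_1 and 1788237_1 were not. Probe 1767340_1, named for this pattern after its values were seen, had replicates at -1.29, -1.20 and -1.64 (mean -1.38 ± 0.23, SD, n = 3; adjusted p 0.069 in limma).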
